A study of Mus musculus with 12 samples.

Results

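Heat shock proteins and chaperones were followed as 36 genes chosen by symbol: the HSP90, HSP70, HSP40 and small heat shock protein families, the mitochondrial chaperonin, cochaperones and nucleotide exchange factors, and the heat shock factors Hsf1 and Hsf2. All 36 were found among the 53465 genes of the deposited count table, and all 36 passed the filter on low counts, which left 17796 genes. Total RNA of mouse striatum, labelled striatal cells, was read, once ribosomal RNA had been depleted, in 12 libraries, 3 for each of 4 genotypes on a C57/BL6 background. WT animals were wild type at both loci, and Q175HD animals carried the neo-deleted Q175 knock-in (B6J.129S1-Htttm1.1Mfc/190ChdiJ), an expanded CAG repeat in the huntingtin gene Htt that models Huntington's disease. SUMO-KO animals were knocked out for SUMO-1, a small protein that is attached to other proteins, and Q175HD/SUMO-KO animals carried both changes. The labels used here give no age, no sex, no copy number of the knock-in allele, and no statement that the replicates are separate animals. Each p-value therefore reflects the variation among these 12 libraries only. The design asks what the knock-in does with and without SUMO-1, and what SUMO-1 loss does with and without the knock-in.

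Chaperones bind proteins that are not folded and hold, fold or hand them on. HSP40 proteins deliver clients to HSP70 and start its ATPase cycle, nucleotide exchange factors end that cycle, HSP90 with its cochaperones completes the folding of kinases and receptors, and small heat shock proteins hold clients without ATP. Separate transcription programmes raise chaperones: heat shock factor 1 (HSF1), itself a target of SUMO attachment, acts through heat shock elements in cytosolic and mitochondrial chaperone genes, and the unfolded protein response acts through endoplasmic reticulum stress elements in genes of that compartment. Chaperones of the HSP70 and HSP40 families reduce aggregation of polyglutamine proteins such as mutant huntingtin in cell models.

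The promoter elements of these programmes were read from RefSeq promoter sequences (GRCm38.p6), in the 250 bases before each RefSeq start, and 28 of the 36 genes had an entry. A heat shock element of 3 units was searched on both strands as GAANNTTC followed by NNGAA. It was present in 3 of the 28 genes (10.7%), Hspd1, Hspe1 and Dnajb6, and in 0.514% of 27025 genes. Hspd1 and Hspe1 matched on the same stretch of DNA, which counts for both genes here and in the shares of pairs below. After that result had been seen, pairs of units were searched too, and both kinds of pair are contained in the longer element. Head-to-head pairs (GAANNTTC, the same on both strands) were present in 8 of the 28 (28.6%) and in 7.73% of all genes, and tail-to-tail pairs (TTCNNGAA) in 5 of the 28 (17.9%) and in 8.11%. The endoplasmic reticulum stress element, CCAAT and CCACG with 9 bases between them, on either strand, was present in 3 of the 28 genes (10.7%), Hspa5, Hsp90b1 and Dnajc3, and in 0.13% of all genes. A match is only a match of letters. Starts differ between annotations, and the Dnajb6, Hsph1 and Hspa5 stretches below, and the Hspd1 match, overlap an exon of their own gene in GENCODE M21. Hspa13 and Dnajb1 were not among the genes with a match, which also holds for any gene without an entry. Shown are matches of 5 genes: the element of 3 units for Hspe1 and Dnajb6, a tail-to-tail pair for Hsph1, and a head-to-head pair for Hspa1a and Hspa1b. The pairs of Hspb1, Dnaja1, Dnaja4 and Dnajb4 are not shown. Each is read along the gene's own strand, with the matched letters in capitals:
Hspe1 (chr1:55088054-55088081, plus strand): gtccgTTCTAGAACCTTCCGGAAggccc
Dnajb6 (chr5:29735847-29735869, plus strand): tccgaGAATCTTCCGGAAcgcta
Hsph1 (chr5:149636357-149636374, minus strand): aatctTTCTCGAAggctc
Hspa1a (chr17:34972248-34972265, minus strand): tgctgGAAGATTCctggc
Hspa1b (chr17:34959330-34959347, minus strand): tgctgGAAGATTCctggc
The Hspe1 stretch lies 67 to 94 bases before the Hspe1 start and is the same DNA that matched in the promoter of Hspd1, which is transcribed the other way. The Hspa1a and Hspa1b stretches are identical and lie 92 to 109 bases before each start. The endoplasmic reticulum stress elements are shown for all 3 genes that had one, and Hsp90b1 had a pair:
Hspa5 (chr2:34772020-34772048, plus strand): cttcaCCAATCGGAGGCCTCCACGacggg
Hsp90b1 (chr10:86705633-86705661, minus strand): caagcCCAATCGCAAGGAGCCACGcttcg
Hsp90b1 (chr10:86705528-86705556, minus strand): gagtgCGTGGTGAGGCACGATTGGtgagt
Dnajc3 (chr14:118937822-118937850, plus strand): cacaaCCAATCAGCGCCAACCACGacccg

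The libraries held 9379594 to 17226419 reads assigned to genes. Of 24 markers of striatal projection neurons, the main neurons of this tissue, 23 fell in the averaged knock-in effect defined below, and their summed level was 13320 to 16300 CPM (read counts divided by the TMM-scaled library size) in WT against 7942 to 8542 in Q175HD. In bulk tissue fewer cells of a type and less RNA per cell cannot be told apart. Markers of cortical excitatory neurons summed to 553.5 to 1249 CPM in WT and to at most 499.2 in the other genotypes. Xist exceeded 1000 reads in 3 libraries (WT 2, SUMO-KO 2 and Q175HD/SUMO-KO 2), and in none of Q175HD.

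The chaperone pool of this tissue was led by cytosolic HSP90 and the constitutive HSP70. On the authors' deposited TPM scale (which takes account of transcript length), Hsp90ab1, the constitutive cytosolic HSP90, stood highest in WT at 1075 ± 168 TPM (SD, n = 3). It was followed by Hspa8, the constitutive HSC70, at 719 ± 196 TPM, and by Hsp90aa1, the inducible cytosolic HSP90, at 391 ± 65.2 TPM. Hsp90b1 and Hspa5, the HSP90 and HSP70 of the endoplasmic reticulum (GRP94 and BiP), stood at 225 ± 53.4 and 181 ± 84.2 TPM. The stress-inducible HSP70 genes Hspa1a and Hspa1b were the lowest of the 36 in WT, at 2.25 ± 0.755 and 2.57 ± 1.96 TPM. The 36 genes together made up 0.346% to 0.538% of all TPM, with SUMO-KO 1 at the bottom and WT 1 at the top of that range.

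**Figure D1:**
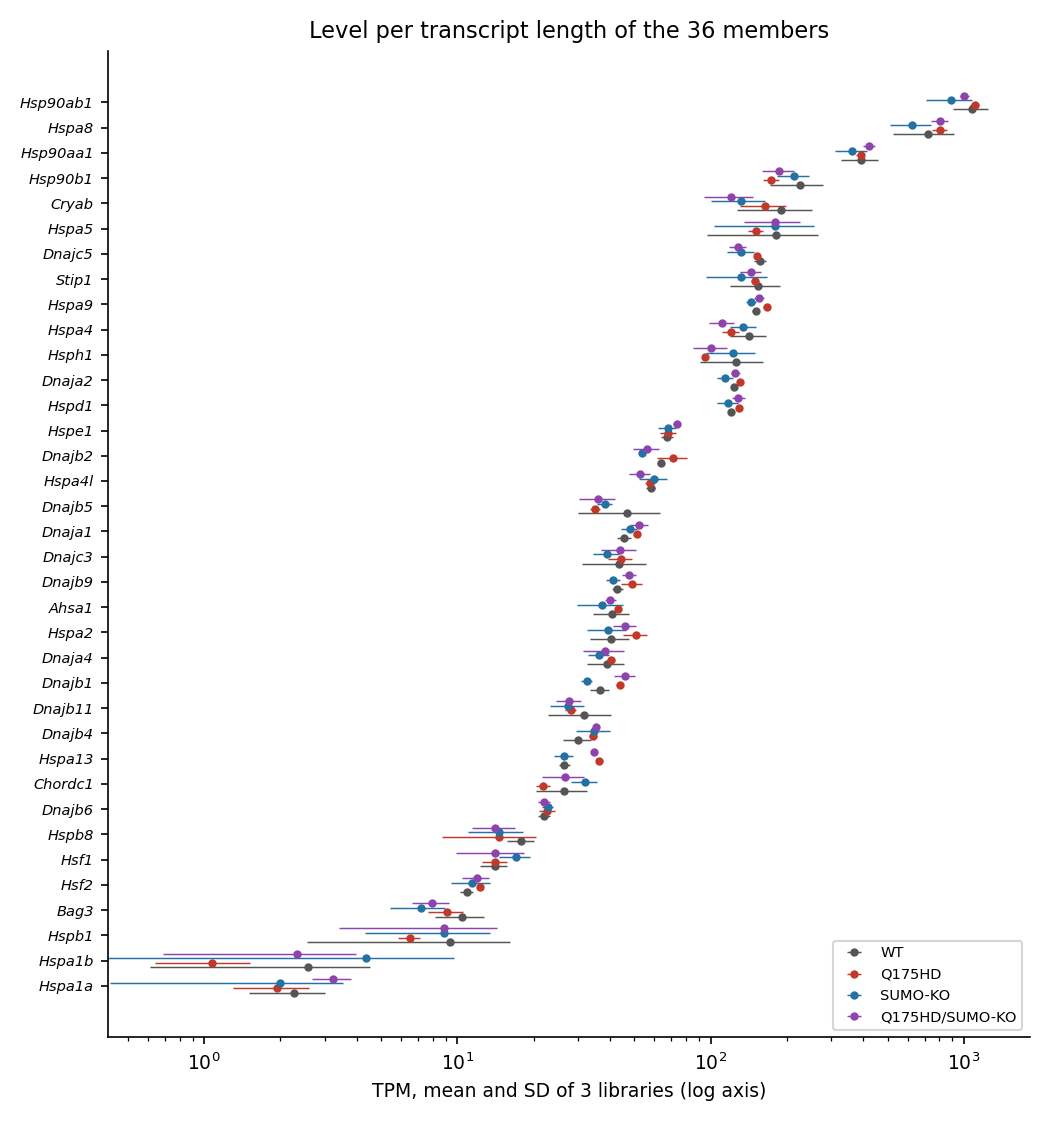
TPM of each of the 36 genes on a log axis, with points for the mean and bars for the SD of 3 libraries in each genotype (bars that reach 0 or below are cut at the left edge). Hsp90ab1, Hspa8 and Hsp90aa1 stand at the top in all 4 genotypes, and Hspa1a and Hspa1b at the bottom.

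Some of these levels involve sequence shared with other genes. Of the 50-base words in the GENCODE M21 transcript of Hspa8, 74.8% also occur in another gene, mostly the pseudogene Gm15459, and for Hsp90aa1 the share is 58.5%. For Hspa1a and Hspa1b, near-identical neighbours on chromosome 17, it is 66.3% and 62.3%, and for Hspb1, Hspd1 and Hspe1 it is 51.6%, 44.8% and 44.8%. Dnaja4 shares 51.9% with the antisense gene Wdr61 and Cryab 19% with the antisense gene Hspb2. The strand counted is not given in the sources used here, so the split of reads between such genes is uncertain. Hspa13 shares 0% and Dnajb1 0.441%.

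Few of these genes were called for the knock-in. With edgeR's quasi-likelihood test, adjusted over all 17796 genes and called at an adjusted p under 0.05, 2 of the 36 rose and 0 fell in the averaged knock-in effect, the mean of the effects with and without SUMO-1. The background was 16.9% of all genes called, 8.04% up and 8.83% down, so the share called among chaperones was below that of all genes. The 2 that rose were Hspa13 and Dnajb1, and both were also called by DESeq2. At an unadjusted p under 0.05 there were 7 of 36 (31.9% of all genes), with Hspa2 and Dnajb9 also higher (16.2%) and Hspa4, Hsph1 and Chordc1 lower (15.7%). The median log2 fold change over the 36 was 0.070, against -0.00036 over all genes, with 20 of the 36 positive (49.9% of all genes), and 35 of the 36 lay within 0.5 of 0 on the log2 scale. Leaving out 1 library gave a median of -0.00994 (17 positive, without Q175HD/SUMO-KO 3) to 0.112 (22 positive, without Q175HD/SUMO-KO 2), and 0.0104 without SUMO-KO 1.

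**Figure D2:**
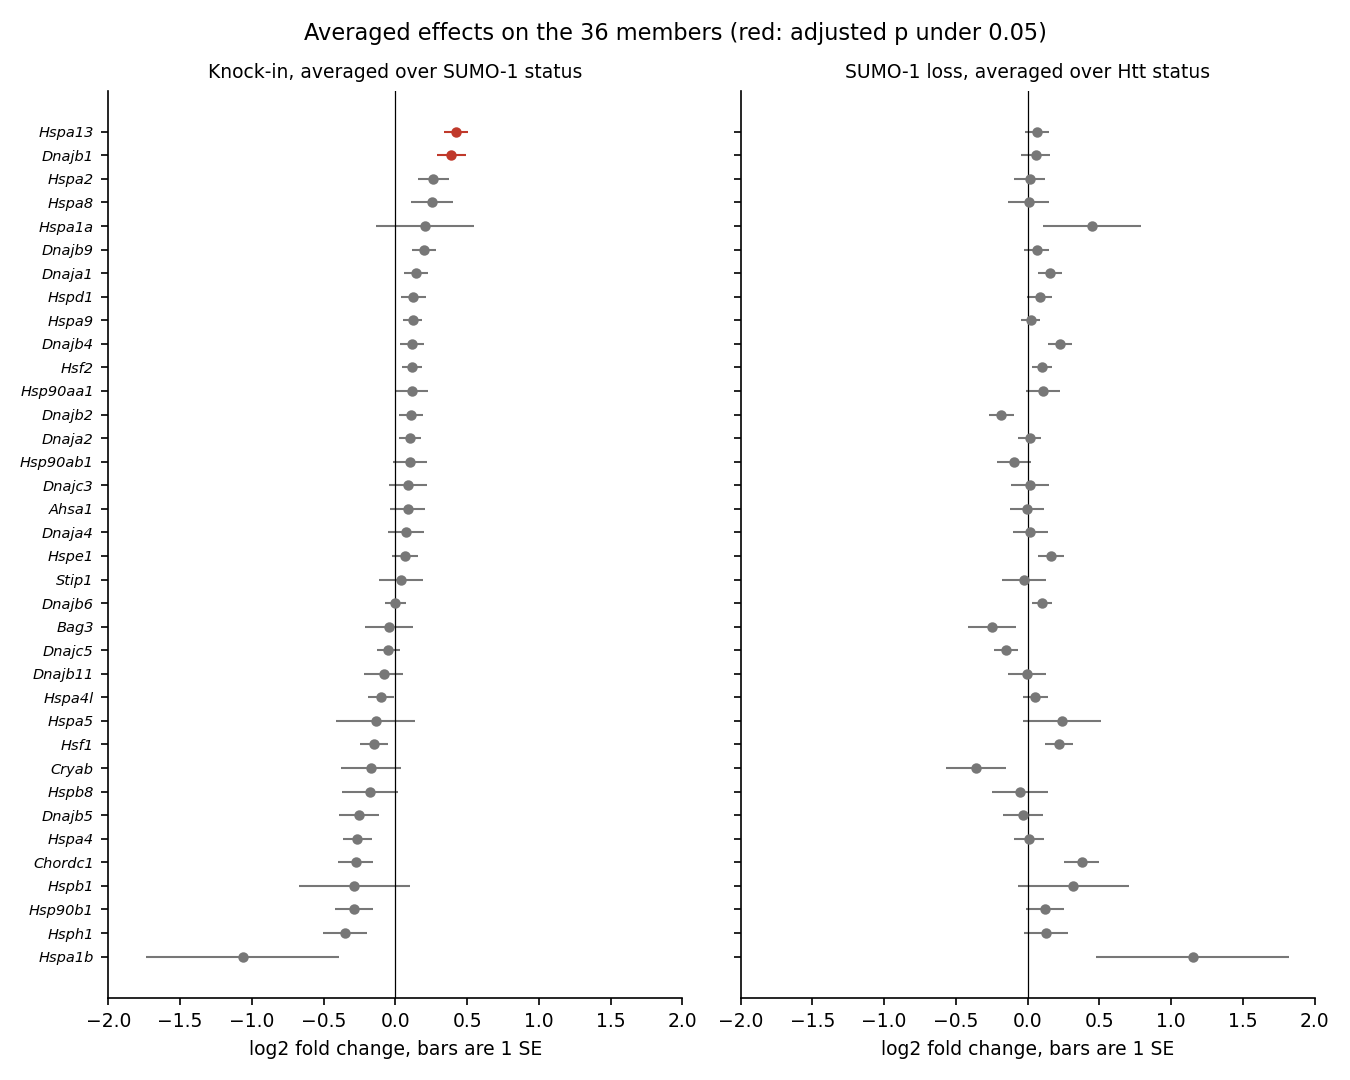
Log2 fold change of each of the 36 genes, with bars of 1 SE, for the averaged knock-in effect (left) and for SUMO-1 loss averaged over Htt status (right), each 6 libraries against 6. Hspa13 and Dnajb1, in red, passed an adjusted p under 0.05 for the knock-in, no gene passed for SUMO-1 loss, and Hspa1b has the widest bars.

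Hspa13 (ENSMUSG00000032932, GRCm38 chr16:75745431-75767104, minus strand, protein coding) encodes a microsomal HSP70-like ATPase that lacks the peptide-binding domain of other HSP70 proteins. It read 47.7, 47.6 and 52.2 CPM in WT libraries 1, 2 and 3, 63.8, 60.6 and 70.6 in Q175HD, 46.0, 47.0 and 58.9 in SUMO-KO and 64.3, 62.1 and 80.6 in Q175HD/SUMO-KO. All 6 knock-in libraries lay above all 6 others, which 3.81% of all genes did in that direction, and 4.35% in the other. The mean rose from 49.2 ± 2.64 to 65.0 ± 5.08 CPM with SUMO-1 present and from 50.6 ± 7.17 to 69.0 ± 10.1 CPM without it (SD, n = 3 each). The averaged log2 fold change was 0.42 (SE 0.0852, edgeR adjusted p = 0.00463). The knock-in effects were 0.40 with SUMO-1 (SE 0.12, edgeR adjusted p = 0.0854) and 0.45 without it (SE 0.121, edgeR adjusted p = 0.0389), and their difference was 0.044 (SE 0.17, edgeR adjusted p = 0.997).

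Dnajb1 (ENSMUSG00000005483, GRCm38 chr8:83608193-83612653, plus strand, protein coding) encodes the heat-inducible cytosolic HSP40 that works with HSP70 to take proteins out of aggregates. It read 39.3, 32.9 and 38.5 CPM in WT libraries 1, 2 and 3, 43.6, 39.7 and 44.6 in Q175HD, 30.0, 33.4 and 37.8 in SUMO-KO and 48.9, 40.3 and 61.5 in Q175HD/SUMO-KO. Again all 6 knock-in libraries lay above all 6 others, by a narrow margin, 39.7 CPM for the lowest of the first and 39.4 CPM for the highest of the second. The averaged log2 fold change was 0.39 (SE 0.0992, edgeR adjusted p = 0.017). It was 0.21 with SUMO-1 (SE 0.14, edgeR adjusted p = 0.493) and 0.57 without it (SE 0.141, edgeR adjusted p = 0.0244). The difference between these, 0.37 (SE 0.198), did not pass the test (edgeR adjusted p = 0.997).

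The averaged calls of Hspa13 and Dnajb1 were both lost in a fit that added the mean level of 17 cortical markers as a covariate, with log2 fold changes of 0.29 (edgeR adjusted p = 0.122) and 0.25 (edgeR adjusted p = 0.307), and kept in the other 18 fits tried. Those markers stand higher in WT, as given above. In Q175HD/SUMO-KO against SUMO-KO the same covariate kept both calls, at 0.49 for Hspa13 (edgeR adjusted p = 0.0156) and 0.62 for Dnajb1 (edgeR adjusted p = 0.013). In that comparison both calls were lost when only those groups were fitted (edgeR adjusted p = 0.151 for Hspa13 and 0.121 for Dnajb1). That of Hspa13 was also lost with median-ratio scaling (edgeR adjusted p = 0.058) and without the libraries with abundant Xist (edgeR adjusted p = 0.117).

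**Figure D3:**
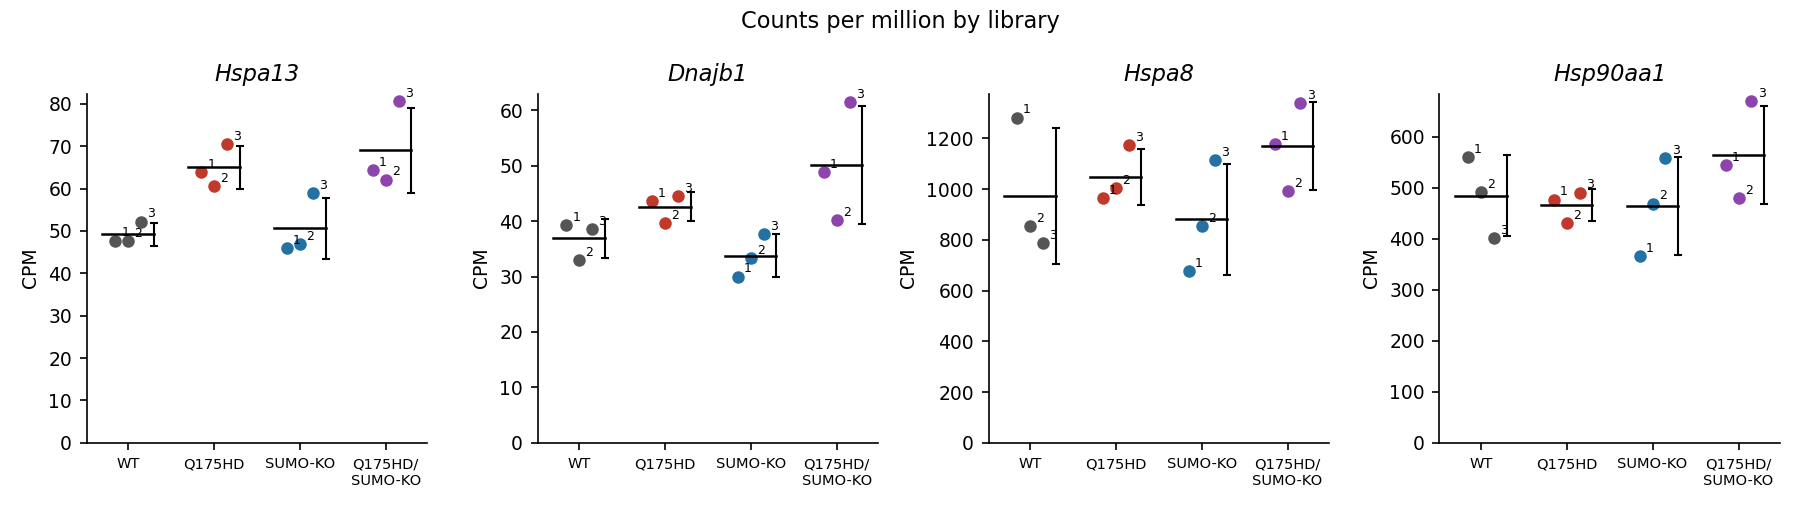
CPM by library (numbered points) for Hspa13, Dnajb1, Hspa8 and Hsp90aa1 in the 4 genotypes, with a line for the mean and a bar for the SD of 3 libraries. For Hspa13 and Dnajb1 every Q175HD and Q175HD/SUMO-KO library lies above every WT and SUMO-KO library, and for Hspa8 and Hsp90aa1 the genotypes overlap.

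Taken one comparison at a time, 0 of the 36 genes were called by edgeR in Q175HD against WT, where 3.93% of all genes were (1.11% up, 2.82% down), and DESeq2 called 0. At an unadjusted p under 0.05 there were 3 (17.8% of all genes), Hspa13 higher (7.96%) and Hsp90b1 and Dnajb5 lower (9.85%). The groups did not overlap for Dnajb1, Hspa13 and Hspa9, higher in Q175HD (13.6% of all genes), and for Hsph1, lower (14.3%). Without SUMO-1, 2 rose and 0 fell in Q175HD/SUMO-KO against SUMO-KO, the same Hspa13 and Dnajb1, where 7.81% of all genes were called (3.19% up, 4.61% down). At an unadjusted p under 0.05 there were 3 (24.4%), Dnajb9 being the other, all higher (12.1%) and 0 lower (12.3%), and DESeq2 called 2. The groups did not overlap for Hspa13 and Dnajb1, both higher (13.8% of all genes), and for 0 lower (11%). The count of calls was 0 to 5 when 1 library was left out. It was 0 without SUMO-KO 1, SUMO-KO 2, Q175HD/SUMO-KO 1 or Q175HD/SUMO-KO 3, and 5 without SUMO-KO 3, when Hsp90ab1, Hspa1a and Hspa2 joined and 13.2% of all genes were called.

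SUMO-1 loss gave no call among the 36. In SUMO-KO against WT edgeR called 0 of the 36 (0.045% of all genes, 0.0112% up and 0.0337% down), and DESeq2 called 0. At an unadjusted p under 0.05 there was 1 (13.5% of all genes), Hsf1, higher (7.44%), and 0 lower (6.02%). The groups did not overlap for Hsf1, higher (7.59%), and for Dnajb2, lower (6.54%). In Q175HD/SUMO-KO against Q175HD edgeR called 0 (0.0337% of all genes, 0.0225% up and 0.0112% down), and DESeq2 called 0. Unadjusted there was 1 (5.28%), Chordc1, higher (2.69%), and 0 lower (2.59%). The groups did not overlap for Chordc1 and Hspa1a, higher (6.35%), and for 0 lower (6.65%). Averaged over Htt status edgeR called 0 (0.0787%, with 0.0562% up and 0.0225% down), and DESeq2 called 0. Unadjusted there were 3 (15.7%), Chordc1, Dnajb4 and Hsf1, all higher (9.08%), and 0 lower (6.61%). The comparisons share libraries, and their values are set side by side only. Without SUMO-KO 3, edgeR called 1, the synaptic vesicle HSP40 Dnajc5, as lower in SUMO-KO against WT and in the averaged effect, in fits that called 7.82% and 6.41% of all genes. For the interaction edgeR called 0 (0.0% of all genes), 0 passed unadjusted (4.33%, with 2.81% higher and 1.52% lower), and DESeq2 called 0. The authors' deposited table for Q175HD/SUMO-KO against SUMO-KO called 2 of the 36, both up, and 9.5% of all genes with an adjusted p. The authors' deposited tables for Q175HD against WT, SUMO-KO against WT and Q175HD/SUMO-KO against Q175HD called 0 of the 36, and 5.98%, 1.51% and 0.085% of all genes.

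Among the other HSP70 genes, Hspa8 (ENSMUSG00000015656, chr9:40800984-40810087) read 1282, 855 and 787 CPM in WT, 964, 1004 and 1175 in Q175HD, 677, 854 and 1113 in SUMO-KO and 1178, 992 and 1338 in Q175HD/SUMO-KO. WT 1 stood above all knock-in libraries but Q175HD/SUMO-KO 3, and the genotypes overlapped. The averaged knock-in effect was 0.26 (SE 0.145, edgeR adjusted p = 0.243). Hspa2, a cytosolic HSP70 best known from the testis, had an averaged log2 fold change of 0.26 (edgeR adjusted p = 0.11), which passed without WT 1 (0.34, edgeR adjusted p = 0.0483) and without SUMO-KO 3 (0.37, edgeR adjusted p = 0.0135). For Hspa9, the mitochondrial HSP70 mortalin, it was 0.12 (edgeR adjusted p = 0.234). Hspa9 was the steadiest of the 36 within genotypes, with a pooled SD of 0.104 on the log2 scale.

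The stress-inducible pair Hspa1a (ENSMUSG00000091971, chr17:34969190-34972156) and Hspa1b (ENSMUSG00000090877, chr17:34956436-34959238), both on the minus strand, was read at low depth. Hspa1a held 35, 21 and 22 reads in WT libraries 1, 2 and 3, 29, 27 and 17 in Q175HD, 8, 12 and 54 in SUMO-KO and 31, 35 and 74 in Q175HD/SUMO-KO. Hspa1b held 51, 17 and 15 in WT, 19, 9 and 11 in Q175HD, 10, 12 and 142 in SUMO-KO and 28, 6 and 71 in Q175HD/SUMO-KO. Single libraries stood out, SUMO-KO 3 and Q175HD/SUMO-KO 3 above all and WT 1 within WT, and for Hspa1b every pair of genotypes overlapped. In CPM, Hspa1a read 2.04, 2.03 and 1.13 in Q175HD and 2.49, 2.95 and 4.45 in Q175HD/SUMO-KO, and these groups did not overlap. That difference, 0.94 on the log2 scale (SE 0.478), did not pass the test (edgeR adjusted p = 0.903). For Hspa1b the averaged effects were -1.06 for the knock-in (SE 0.672, edgeR adjusted p = 0.306) and 1.15 for SUMO-1 loss (SE 0.671, edgeR adjusted p = 0.403). Since the pair shares most of its sequence, their reads were also summed, giving a CPM of 7.2, 3.18 and 2.76 in WT, 3.37, 2.70 and 1.86 in Q175HD, 1.90, 2.39 and 14.04 in SUMO-KO and 4.75, 3.45 and 8.71 in Q175HD/SUMO-KO.

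The HSP40 family, which picks the clients of HSP70, had 12 members, of which Dnajb1 alone passed. The other 11 had averaged knock-in effects from -0.25 (Dnajb5) to 0.20 (Dnajb9, an endoplasmic reticulum HSP40 induced by the unfolded protein response, edgeR adjusted p = 0.127). Dnajb6 and Dnajb2, known as suppressors of polyglutamine aggregation, stood at -0.010 (SE 0.0993) and 0.095 (SE 0.122) in Q175HD against WT, neither passing the test (edgeR adjusted p = 0.976 and 0.771). Dnaja1, Dnaja2 and Dnaja4, cytosolic partners of HSC70, had averaged effects of 0.14, 0.10 and 0.072. Dnajb4, a heat-inducible relative of Dnajb1, was higher with SUMO-1 loss by 0.22 on the log2 scale, which did not pass (edgeR adjusted p = 0.257), and Dnajc5, cysteine string protein alpha of synaptic vesicles, stood at -0.15 (edgeR adjusted p = 0.376).

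The nucleotide exchange factors, which release ADP from HSP70, had negative averaged knock-in effects for all 4 genes, and none passed. Over all genes 49.9% were positive. Bag3 alone changed sign with SUMO-1 status, at -0.26 with SUMO-1 (SE 0.234) and 0.18 without it (SE 0.239). Hsph1 (HSP110, ENSMUSG00000029657, chr5:149614287-149636376, minus strand) read 381, 253 and 230.1 CPM in WT, 212, 197 and 218 in Q175HD, 232, 257 and 384 in SUMO-KO and 269.9, 198 and 273 in Q175HD/SUMO-KO. All 3 Q175HD libraries lay below all 3 WT libraries, and Q175HD/SUMO-KO overlapped SUMO-KO. The averaged effect was -0.35 (SE 0.151, edgeR adjusted p = 0.134). Hspa4, its close relative, had -0.26 (SE 0.102, edgeR adjusted p = 0.0925), Hspa4l -0.099 (edgeR adjusted p = 0.475), and Bag3, which links HSP70 to selective autophagy, -0.042 (edgeR adjusted p = 0.888). Leaving out SUMO-KO 1 brought Hspa4 past the threshold as a fall.

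Hsp90aa1 (ENSMUSG00000021270, chr12:110690605-110702728, minus strand), the inducible HSP90, read 560.2, 492 and 401 CPM in WT, 477, 430.3 and 490.5 in Q175HD, 367, 469 and 557 in SUMO-KO and 544, 479 and 669.6 in Q175HD/SUMO-KO. All genotypes overlapped, and the largest of the 4 pairwise effects, 0.28 for the knock-in without SUMO-1 (SE 0.166), did not pass (edgeR adjusted p = 0.317). Hsp90ab1 had averaged effects of 0.099 for the knock-in and -0.095 for SUMO-1 loss, with an SE of 0.119 for each.

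Of the 3 cochaperones of HSP90, Chordc1 (ENSMUSG00000001774, chr9:18292125-18317442), a heat-inducible HSP90-binding protein, had the largest averaged effects. It read 78.4, 58.8 and 50.2 CPM in WT, 51.0, 43.9 and 53.9 in Q175HD, 63.4, 85.6 and 84.8 in SUMO-KO and 76.7, 55.0 and 69.2 in Q175HD/SUMO-KO. All 3 Q175HD/SUMO-KO libraries lay above all 3 Q175HD libraries, and SUMO-KO overlapped WT. The averaged effect of SUMO-1 loss was 0.38 (SE 0.122, unadjusted p = 0.00878 and edgeR adjusted p = 0.24). The averaged effect of the knock-in was -0.27 (SE 0.122, edgeR adjusted p = 0.142). Stip1, the HOP protein that joins HSP70 to HSP90, and Ahsa1, an activator of the HSP90 ATPase, had averaged knock-in effects of 0.042 (SE 0.153) and 0.084 (SE 0.121).

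The 6 endoplasmic reticulum chaperones are Hspa5, Hsp90b1, Hspa13, Dnajb9, Dnajb11 and Dnajc3, and of these Hspa13 alone passed. Hspa5, named here after its values were seen because of its spread, read 372, 179.5 and 172 CPM in WT, 198, 171 and 212 in Q175HD, 147, 220.3 and 386 in SUMO-KO and 301, 176 and 300.1 in Q175HD/SUMO-KO. WT 1 and SUMO-KO 3 stood at about the same high level and all genotypes overlapped. The averaged knock-in effect of Hspa5 was -0.14 (SE 0.274, edgeR adjusted p = 0.771). Hsp90b1, whose promoter pair of stress elements is shown above, stood at -0.43 on the log2 scale in Q175HD against WT (SE 0.191), which did not pass (edgeR adjusted p = 0.26). Dnajb11 and Dnajc3, cochaperones of BiP, had averaged knock-in effects of -0.083 (SE 0.133) and 0.090 (SE 0.134).

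Hspe1 and Hspd1, the lid and the barrel of the mitochondrial chaperonin, are the divergent pair that shares the heat shock element shown above. Hspe1 (ENSMUSG00000073676, chr1:55088132-55091307, plus strand) read 30.7, 32.9 and 30.3 CPM in WT, 29.4, 27.4 and 34.5 in Q175HD, 27.6, 34.5 and 35.3 in SUMO-KO and 35.1, 31.9 and 42.9 in Q175HD/SUMO-KO. All genotypes overlapped, and its averaged effects were 0.068 for the knock-in and 0.16 for SUMO-1 loss (SE 0.0925 each). Hspd1 had 0.13 and 0.083 (SE 0.0851 each), and none of these passed the test.

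The small heat shock proteins Cryab, Hspb1 and Hspb8 did not pass in any comparison. Cryab (alpha B crystallin, ENSMUSG00000032060, chr9:50751325-50756636), abundant in oligodendrocytes, read 121, 79.5 and 64.7 CPM in WT, 67.8, 87.3 and 64.7 in Q175HD, 43.3, 68.5 and 80.0 in SUMO-KO and 64.1, 40.8 and 78.2 in Q175HD/SUMO-KO. The genotypes overlapped, with the lowest libraries SUMO-KO 1 and Q175HD/SUMO-KO 2. The averaged effect of SUMO-1 loss was -0.36 (SE 0.211, edgeR adjusted p = 0.405). Hspb1 (HSP27) and Hspb8, the partner of BAG3, had averaged knock-in effects of -0.29 (SE 0.387) and -0.18 (SE 0.197). The 14 markers of myelinating oligodendrocytes summed to 8476 to 9033 CPM in WT, 7199 to 9873 in Q175HD, 5780 to 8471 in SUMO-KO and 4676 to 7668 in Q175HD/SUMO-KO, with no marker at 0. Their part in the Cryab values was not tested.

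Hsf1 (ENSMUSG00000022556, chr15:76477422-76501913), the master regulator of the heat shock response, read 35.7, 28.7 and 29.2 CPM in WT, 28.2, 32.6 and 29.3 in Q175HD, 41.8, 38.5 and 35.96 in SUMO-KO and 34.3, 38.0 and 26.0 in Q175HD/SUMO-KO. All 3 SUMO-KO libraries lay above all 3 WT libraries, by 35.96 against 35.75 CPM at the nearest, and Q175HD/SUMO-KO overlapped Q175HD. The difference between SUMO-KO and WT, 0.31 on the log2 scale (SE 0.136), did not pass (edgeR adjusted p = 0.351). Hsf2, which can pair with HSF1, had averaged effects of 0.11 for the knock-in and 0.097 for SUMO-1 loss (SE 0.07 each).

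Within each genotype the chaperones tended to be highest in the same library, and the deviations were larger in WT, SUMO-KO and Q175HD/SUMO-KO than in Q175HD. SUMO-KO 3 was the highest of its genotype for 30 of the 36 genes (36.4% of all genes), Q175HD/SUMO-KO 3 for 29 (37.4%), and WT 1 for 26 (33.9% of all genes). SUMO-KO 1 was the lowest of its genotype for 31 of the 36 (33.5% of all genes) and Q175HD/SUMO-KO 2 for 31 (38.9%). The mean deviation of the 36 from their genotype's mean log2 CPM was 0.33 in SUMO-KO 3, 0.27 in WT 1 and 0.21 in Q175HD/SUMO-KO 3, against -0.28 in SUMO-KO 1 and -0.27 in Q175HD/SUMO-KO 2. For the 16 genes classed as heat-inducible it was 0.47 in SUMO-KO 3 and -0.39 in SUMO-KO 1, and for the other 20 it was 0.21 and -0.20. In Q175HD library 3 was most often the highest and library 2 the lowest, but the mean deviations were small, from -0.053 to 0.036. The unfolded protein response list, 32 genes of which 5 are among the 36, had a like pattern, with WT 1 highest of its genotype for 27, SUMO-KO 3 for 26, SUMO-KO 1 lowest for 24 and Q175HD/SUMO-KO 2 lowest for 28. Hspa1b had the widest pooled SD within genotypes, 1.24 on the log2 scale, wider than 99.5% of all genes, followed by Hspb1 (0.758), Hspa1a (0.646), Hspa5 (0.525) and Cryab (0.42).

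Other measures also differed between these libraries. Reads assigned to genes were 9379594 in SUMO-KO 1 and 14714746 in SUMO-KO 3, 11237097 in Q175HD/SUMO-KO 2 and 17226419 in Q175HD/SUMO-KO 3, and 12213078 in WT 1, which was not the deepest of its genotype. The mean log2 level of 15 glucocorticoid-response genes, relative to WT, was 0.40 in SUMO-KO 3 and -0.53 in SUMO-KO 1, and 0.19 in WT 1 against -0.083 and -0.11 in the other WT libraries. In Q175HD/SUMO-KO it ran the other way, 0.17 in library 2 and -0.42 in library 3. The 12 astrocyte markers lay at -0.33 in SUMO-KO 1 and 0.11 in SUMO-KO 3, and at -0.33 in Q175HD/SUMO-KO 2 and -0.043 in Q175HD/SUMO-KO 3. In WT 1, 2 and 3 they lay at 0.055, -0.068 and 0.013. The 17 cortical markers ran the other way in Q175HD/SUMO-KO, -0.80 in library 2 and -1.79 in library 3. The 10 choroid plexus markers lay at -1.29 and -2.85 in SUMO-KO 1 and 3, but at -2.76 and 1.25 in Q175HD/SUMO-KO 2 and 3. Within WT their sum ran from 65.0 to 4178 CPM. The part of these measures in the chaperone levels was not tested.

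**Figure D4:**
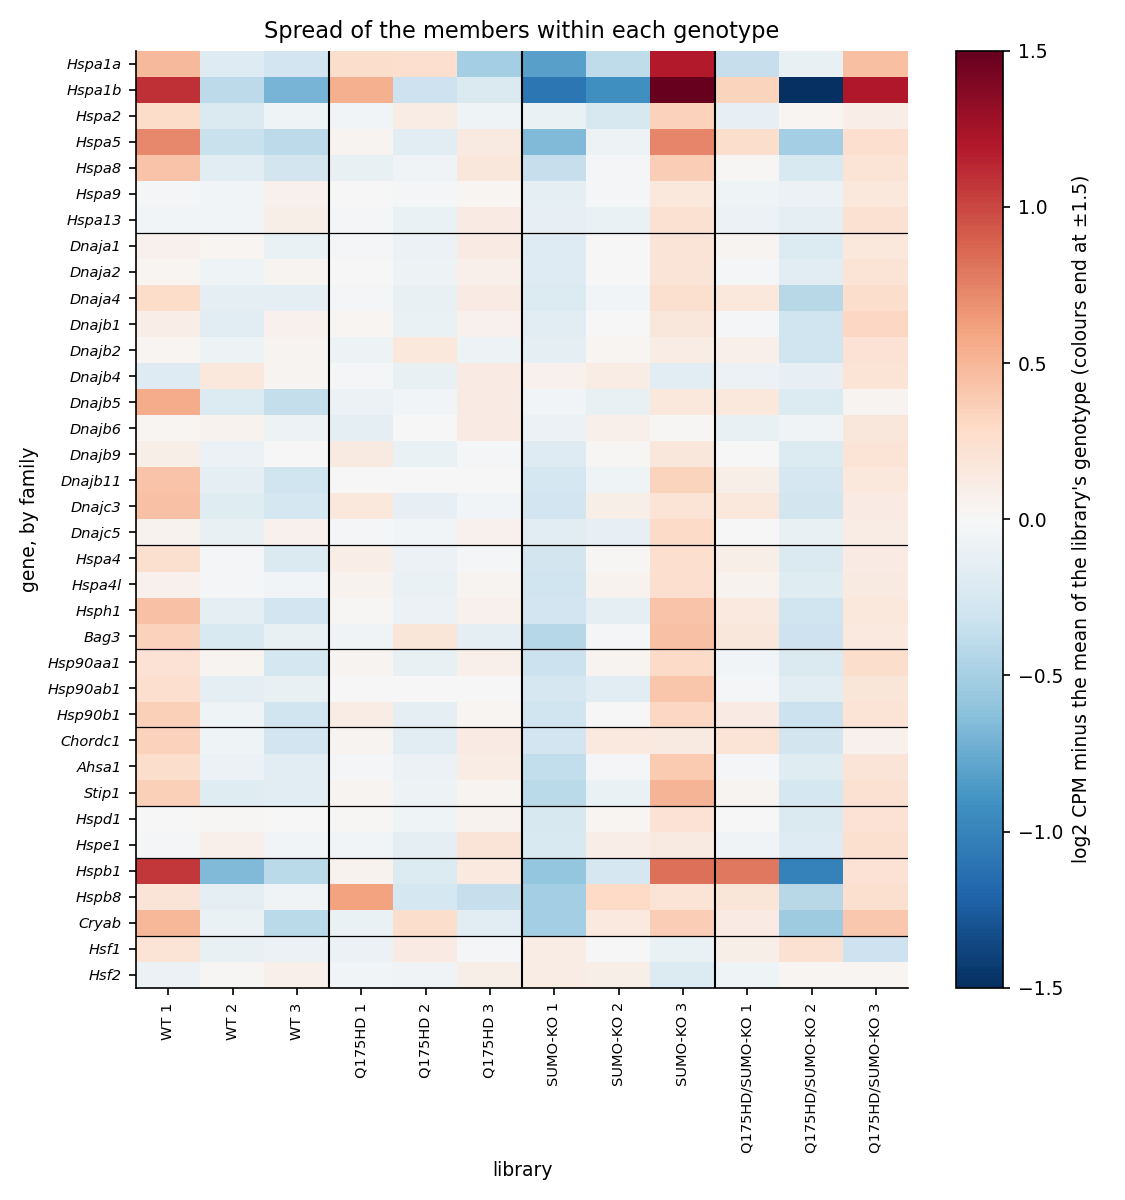
Log2 CPM of each of the 36 genes in each library minus the mean of that library's genotype, with genes in rows by family and libraries in columns (red above, blue below the genotype's mean). SUMO-KO 3, WT 1 and Q175HD/SUMO-KO 3 are mostly red, and SUMO-KO 1 and Q175HD/SUMO-KO 2 mostly blue.

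**Figure D5:**
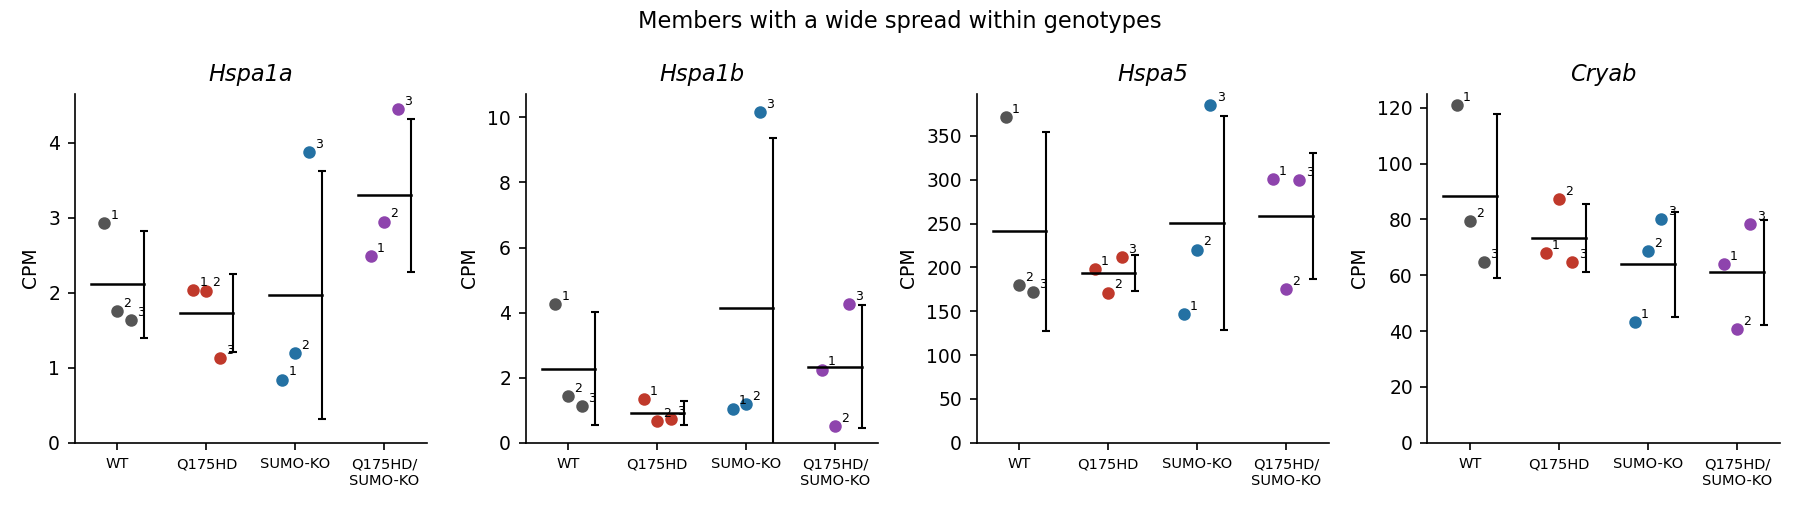
CPM by library (numbered points) for Hspa1a, Hspa1b, Hspa5 and Cryab in the 4 genotypes, with a line for the mean and a bar for the SD of 3 libraries. SUMO-KO 3 is the highest of its genotype for all 4 genes and SUMO-KO 1 the lowest.

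The signs of the small effects varied with single libraries. The interaction term was positive for 33 of the 36 genes, with a median of 0.18, against 49.0% of all genes and a median of -0.0061, and was called for none. With median-ratio scaling it was positive for 31. Leaving out 1 library brought the count to between 22 and 33 and the median to between 0.033 and 0.32, with the lowest count without Q175HD/SUMO-KO 3 and 23 without WT 1 or without SUMO-KO 1. In Q175HD/SUMO-KO against Q175HD 32 of the 36 were positive (57.7% of all genes), and 18 were without Q175HD/SUMO-KO 3. In Q175HD against WT 14 of the 36 were positive (50.5% of all genes), and 25 were without WT 1. In Q175HD/SUMO-KO against SUMO-KO 26 were positive (50.6%), 32 without SUMO-KO 3 and 18 without SUMO-KO 1 or without Q175HD/SUMO-KO 3. In SUMO-KO against WT 15 were positive (54.1%), 27 without WT 1 or without SUMO-KO 1 and 6 without SUMO-KO 3. For SUMO-1 loss averaged over Htt status 26 were positive (56.2%), 19 with median-ratio scaling, and 14 without Q175HD/SUMO-KO 3 to 31 without Q175HD/SUMO-KO 2.

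Beyond the 36, lists of related genes were counted for the averaged knock-in effect, where 8.04% of all genes rose and 8.83% fell. The lists were written from textbook knowledge but with earlier results of these data known, so their counts are not an independent test. Of 18 genes of the cytosolic TRiC chaperonin and of prefoldin, which passes actin and tubulin to it, 7 rose and 0 fell, with a median log2 fold change of 0.18. The largest were Vbp1 (prefoldin, 0.42, SE 0.0946, edgeR adjusted p = 0.00906), Pfdn5 (prefoldin, 0.35, edgeR adjusted p = 0.00882), Pdcl3 (0.34, edgeR adjusted p = 0.0287) and the subunit Cct2 (0.26, edgeR adjusted p = 0.0332). The list's mean log2 level relative to WT ran from -0.054 to 0.034 in WT, 0.054 to 0.23 in Q175HD, -0.12 to 0.047 in SUMO-KO and 0.14 to 0.36 in Q175HD/SUMO-KO, without overlap between knock-in and other libraries.

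Of 32 other HSP40 genes 4 rose, led by Dnajc12 (0.41, edgeR adjusted p = 0.0098), a cochaperone of aromatic amino acid hydroxylases, and 3 fell, led by Dnajc8 (-0.33, edgeR adjusted p = 0.00885), a splicing-associated protein. Of 21 other HSP90 genes and cochaperones 2 rose and 0 fell, Ahsa2 (0.68, SE 0.113, edgeR adjusted p = 0.00138), a relative of the HSP90 activator Ahsa1, and Pih1d1 (0.36, edgeR adjusted p = 0.028), of the R2TP complex. Of 14 other HSP70 genes and exchange factors, and of 5 other small heat shock and heat shock factor genes, 0 were called by edgeR, with 1 and 2 at an unadjusted p under 0.05 (DESeq2 was not used for these lists). Of 16 mitochondrial protease and stress genes that are not among the 36, 2 rose and 0 fell, Htra2 (0.43, edgeR adjusted p = 0.00218), a protease of the space between the mitochondrial membranes, and Spg7 (0.24, edgeR adjusted p = 0.0199), a subunit of the inner-membrane protease.

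The unfolded protein response list, leaving out its members among the 36, had 27 genes, of which 1 rose and 2 fell, with a median of -0.035. Atf6, the membrane-bound sensor whose cleaved form binds the stress element shown above, fell by 0.66 on the log2 scale (SE 0.0644, edgeR adjusted p = 2.77e-05). All 6 knock-in libraries lay below all 6 others for Atf6, at 90.5 ± 6.14 CPM against 142.7 ± 12.1 (SD, n = 6 each). Trib3, a pseudokinase induced by ATF4 and CHOP, fell by 1.66 (SE 0.249, edgeR adjusted p = 0.000639), from a low level of 2.14 ± 0.584 to 0.705 ± 0.299 CPM. Edem1, which sends misfolded glycoproteins to degradation, rose (0.27, edgeR adjusted p = 0.0238). Hspa5, Hsp90b1, Dnajb11 and Dnajc3, chaperones of the same response, were not called, with the values given above.

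Of 24 other HSF1-target and stress genes 3 rose and 3 fell. The 3 that rose included Cct2, named above. Gadd45b, a stress-inducible regulator of kinase signalling, rose by 0.49 (edgeR adjusted p = 0.0295), and the polyubiquitin gene Ubb by 0.22 (edgeR adjusted p = 0.0354), while the kinase gene Sgk1 fell by 0.62 (edgeR adjusted p = 0.00859) and the metallothionein gene Mt2 by 0.47 (edgeR adjusted p = 0.0115). Of 18 circadian and temperature-response genes 2 rose and 9 fell. The 2 that rose were the cold-inducible RNA-binding genes Rbm3 (0.71, SE 0.173, edgeR adjusted p = 0.0172) and Cirbp (0.58, SE 0.158, edgeR adjusted p = 0.0274). Npas2, a clock transcription factor of the forebrain, fell most (-1.19, SE 0.0781, edgeR adjusted p = 1.11e-06), followed by Dbp (-0.64, edgeR adjusted p = 0.00222) and Nr1d1 (-0.55, edgeR adjusted p = 0.004). Of 15 glucocorticoid-response genes 1 rose and 5 fell, 4 of them (Per1, Sgk1, Mt1 and Mt2) shared with the lists just described. The labels give no time of day.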

How the data were processed

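Per the labels, the miRNeasy Mini Kit served for extraction, and the NEBNext Ultra II directional kit for libraries depleted of rRNA. Bowtie 1.1.2, STAR 2.5.2a, cutadapt 2.10 and an unstated version of DESeq2 appear in the submitters' processing notes, with the builds GRCm38 and mm10. How reads were counted, and on which strand, is not stated there. The deposited count table holds raw reads per Ensembl gene, and 0 of its columns belonged to other series. The authors' deposited TPM values were used for levels only. The log2 fold changes and the p-values of the authors' deposited tables are DESeq2 output, per the file headers, and were used for comparison only.

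The count test was edgeR 4.0.16 (R 4.3.3): filterByExpr (minimum count 10, minimum total 15), TMM scaling, robust quasi-likelihood fit of 4 group means to 12 libraries (common BCV 0.171), and Benjamini-Hochberg adjustment over 17796 genes, with a call at an adjusted p under 0.05 in 7 comparisons. An averaged effect is the mean of the effects in both backgrounds, and the interaction is the knock-in effect without SUMO-1 minus that with it. The SE is the log2 fold change divided by the square root of F. Mean log2 levels used a prior count of 2. The fit was tested on simulated data.

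The 36 genes and all lists were chosen with earlier results of these data known; the pairs of heat shock units, the overlap of 6 libraries with 6, the sign counts under the alternatives and Hspa5 by library were added after seeing the data. Values in every library are given for Hspa1a, Hspa1b, Hspa8, Hsp90aa1, Dnajb1, Hsf1, called members, and the member with the largest averaged effect in other families; from related lists up to 4 calls per direction were eligible by size. Sequence sharing and coordinates came from GENCODE M21 (GRCm38). The alternatives were median-ratio scaling, DESeq2 1.42.0, no filter, a mean count of at least 50, a replicate block, only the groups compared, each library left out, a covariate of 17 cortical markers, and leaving out the 3 libraries with over 1000 Xist reads. A check of the labels on the expression of a targeted gene is not reported here.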

Additional observations from a re-analysis of the deposited data

How the results depend on the processing

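Hspa13 and Dnajb1 kept their direction under the alternatives tried, but the median over the 36 changed sign with single libraries left out: in Q175HD against WT from -0.048 to 0.0543 without WT 1, in SUMO-KO against WT from -0.0219 to 0.0895 without WT 1 and 0.0854 without SUMO-KO 1, for the averaged knock-in effect from 0.0701 to -0.00994 without Q175HD/SUMO-KO 3, and for SUMO-1 loss averaged from 0.0544 to -0.0369 without Q175HD/SUMO-KO 3 and -0.0195 without SUMO-KO 3. The count of called members in Q175HD against WT was 0, and 1 (Hspa13) when only the groups compared were fitted. In Q175HD/SUMO-KO against SUMO-KO it was 2, and 0 with only the groups compared, 1 with median-ratio size factors, 1 without the libraries with abundant Xist, and 0 to 5 with 1 library left out. The averaged knock-in count was 2, and 0 with the cortical covariate and 2 to 3 with 1 library left out. In SUMO-KO against WT and for SUMO-1 loss averaged it was 0 to 1 with 1 library left out, and in Q175HD/SUMO-KO against Q175HD and for the interaction 0 under every alternative. Dnajb1 and Hspa13 kept the averaged call in 18 of 19 alternatives, with log2 fold changes of 0.25 to 0.46 and 0.29 to 0.49. In Q175HD/SUMO-KO against SUMO-KO Dnajb1 kept its call in 9 of 14 and Hspa13 in 7 of 14. The cause of these changes was not tested. Over all genes, the count of calls behind the background shares also moved. In Q175HD against WT it was 699, and 1082 by DESeq2, 1297 with only the groups compared, 92 with the cortical covariate and 365 without the Xist libraries. It was 1389 in Q175HD/SUMO-KO against SUMO-KO, and 407 with only the groups compared, 572 without the Xist libraries and 2395 without SUMO-KO 3. The averaged knock-in count was 3001, and 1147 with the cortical covariate, 1938 without the Xist libraries and 1996 without Q175HD 3. In SUMO-KO against WT it was 8, and 257 by DESeq2, 119 with no filter and 1422 without SUMO-KO 3. For SUMO-1 loss averaged it was 14, and 221 by DESeq2, 133 with no filter and 1165 without SUMO-KO 3. It was 6 in Q175HD/SUMO-KO against Q175HD, and 1 to 19 over the alternatives, and for the interaction 0, and 0 to 34. Hspa1a and Hspa1b, at 6 to 142 reads a library, limit what can be said of the inducible HSP70.

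With the replicate number as a block the count was 1 in Q175HD against WT (Hspa13, edgeR adjusted p = 0.0164), and 2 in Q175HD/SUMO-KO against SUMO-KO and for the averaged knock-in effect. The numbers were not taken as a pairing, since in none of the 4 comparisons between genotypes did all 3 same-numbered pairs correlate above 0.1 in their deviations. For WT with Q175HD/SUMO-KO, which were not compared directly, all 3 did (0.177, 0.316 and 0.105). Same-numbered libraries were the more alike: 11 of 18 same-numbered pairs correlated above 0.1 (median 0.139, range -0.228 to 0.574), against 9 of 36 pairs with different numbers (median -0.031).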
